A study of Mus musculus with 4 samples.

Results

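The histone cluster genes are the 47 genes measured here whose array name begins with Hist1h, Hist2h, Hist3h or Hist4h, out of 18413 genes tested. The array carried 55 such probes for 49 names. The brightest probe of a name stood for its gene, and a gene was kept if that probe was well above background on both arrays of at least 1 genotype. Hist2h2ab and Hist3h2bb-ps did not meet this and are not described. Of the 47 genes, 45 were measured on all 4 arrays, and Hist1h1d and Hist1h2bp were kept through wild type and were well above background on 1 of 2 SerpinB2-/- arrays. By the class in the name there were 6 H1, 13 H2a, 11 H2b, 8 H3 and 9 H4 genes. Most lay in the Hist1 cluster on chromosome 13 (37 genes), with 7 in Hist2 on chromosome 3, 2 in Hist3 on chromosome 11 and 1, Hist4h4, on chromosome 6.

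RNA came from cultured tubular cells of the kidneys of male mice aged 8 weeks. Wild type cells (n = 2) were set against SerpinB2-/- cells (n = 2), both on the B6.J background; Serpinb2 encodes plasminogen activator inhibitor-2. The labels do not say which part of the gene was deleted or whether the knockout mice were littermates of the controls. All 4 cultures received the phorbol ester PMA at 100 ng/ml, an activator of protein kinase C, so that no untreated cells entered the comparison. Each sample was hybridised to its own one-colour array. No label says whether 2 samples of a genotype were separate animals or cultures, so p-values cover only the spread between these samples.

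Histones H2A, H2B, H3 and H4 form the core around which DNA is wound, and H1 binds the linker DNA between cores. The clustered genes supply most new histone during S phase, when the genome is copied. Their messages are unusual in ending, as a rule, in a short stem-loop in place of a poly(A) tail. The stem-loop is bound by the protein SLBP, which takes part in 3′ end cleavage, translation and turnover of the message. Some cluster genes also give poly(A)-tailed messages that run past the stem-loop, which have been described in differentiated cells.

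The sequences of the probes are shown first because the direction of the genotype difference went in part with what the probes target. A stem-loop was searched for as the letters GGNNNT, 4 further bases and the reverse complement of the first 6, in all 16 bases, on the strand of the message. The whole stem-loop was present in 13 of 39429 probes (0.033%), of which 5 were among the 55 histone probes (9.09%). The sequence of each of these 5 at its 3′ end is given with the stem-loop in capitals, together with Hist1h2ab, whose probe ends inside the stem-loop, and Hist1h2ae, whose probe begins inside it.
Hist1h3a: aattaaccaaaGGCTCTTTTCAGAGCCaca
Hist1h3g: cactttaaaGGCTCTTCTTAGAGCCaccca
Hist1h3i: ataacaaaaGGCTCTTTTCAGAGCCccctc
Hist1h4m: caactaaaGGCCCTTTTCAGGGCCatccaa
Hist2h2bb: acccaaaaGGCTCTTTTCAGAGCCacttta
Hist1h2ab: gaaagttaaccaaaacaaaGGCTCTTTTCA
Hist1h2ae: CTTTTCAGAGCCattcacttaattcagtaa

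A second set of probes shared long runs of bases with each other, so that one message may bind several of them. The largest such set held 8 H2a probes. The longest run each shared with the Hist1h2ah probe was 25 to 42 bases of its 60. The probes of 4 of these genes are printed with that run in capitals (for Hist1h2ah, the run it shared with Hist2h2ac).
Hist1h2ah: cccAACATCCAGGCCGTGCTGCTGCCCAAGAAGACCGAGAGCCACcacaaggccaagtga
Hist2h2ac: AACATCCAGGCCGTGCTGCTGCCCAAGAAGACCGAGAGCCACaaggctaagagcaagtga
Hist1h2af: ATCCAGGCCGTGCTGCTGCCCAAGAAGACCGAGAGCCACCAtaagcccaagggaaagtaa
Hist1h2an: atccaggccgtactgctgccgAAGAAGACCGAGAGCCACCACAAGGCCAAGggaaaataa

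The histone genes lay on both sides of 0. Of 47 genes, 11 were higher in SerpinB2-/- cells at an adjusted p under 0.05 (limma, Benjamini-Hochberg over all genes), and 4 were lower. Among all genes tested 6.01% were called higher and 9.68% lower. The histone share lay above that of all genes for higher calls and not for lower calls. Of the 11, 6 belong to the set of 8 H2a probes with shared runs, which may bind the same message. Differences are given on the log2 scale as SerpinB2-/- minus wild type, each array having been scaled by its 75th percentile, and errors are moderated standard errors with n = 2 per genotype. The median difference of the histone genes was 0.28, from -0.79 to 0.82, beside 0.006 for all genes tested. The lowest value is that of Hist1h1d, which was kept through wild type, and it gives no exact size. With 1 gene kept for each group of probes that share a run, 36 genes remained, with 5 higher, 4 lower and a median of 0.013. That alternative was chosen after the data were seen. Groups did not overlap for 28 genes with the higher values in SerpinB2-/- cells and for 12 with the lower, against 32.4% and 31.9% of all genes (64.3% in either direction). Here too the histone share was above that of all genes on the higher side only. Hist1h1d and Hist1h2bp, kept through wild type, are among the 12 and do not bear on the direction. The count of higher genes depended on every array. Leaving out wild type replicate 1 or wild type replicate 2 gave 3 and 1, and leaving out SerpinB2-/- replicate 1 or SerpinB2-/- replicate 2 gave 6 and 2. The count of lower genes was 0, 0, 1 and 5 in the same order. The median difference was 0.18 without SerpinB2-/- replicate 2.

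**Figure D1:**
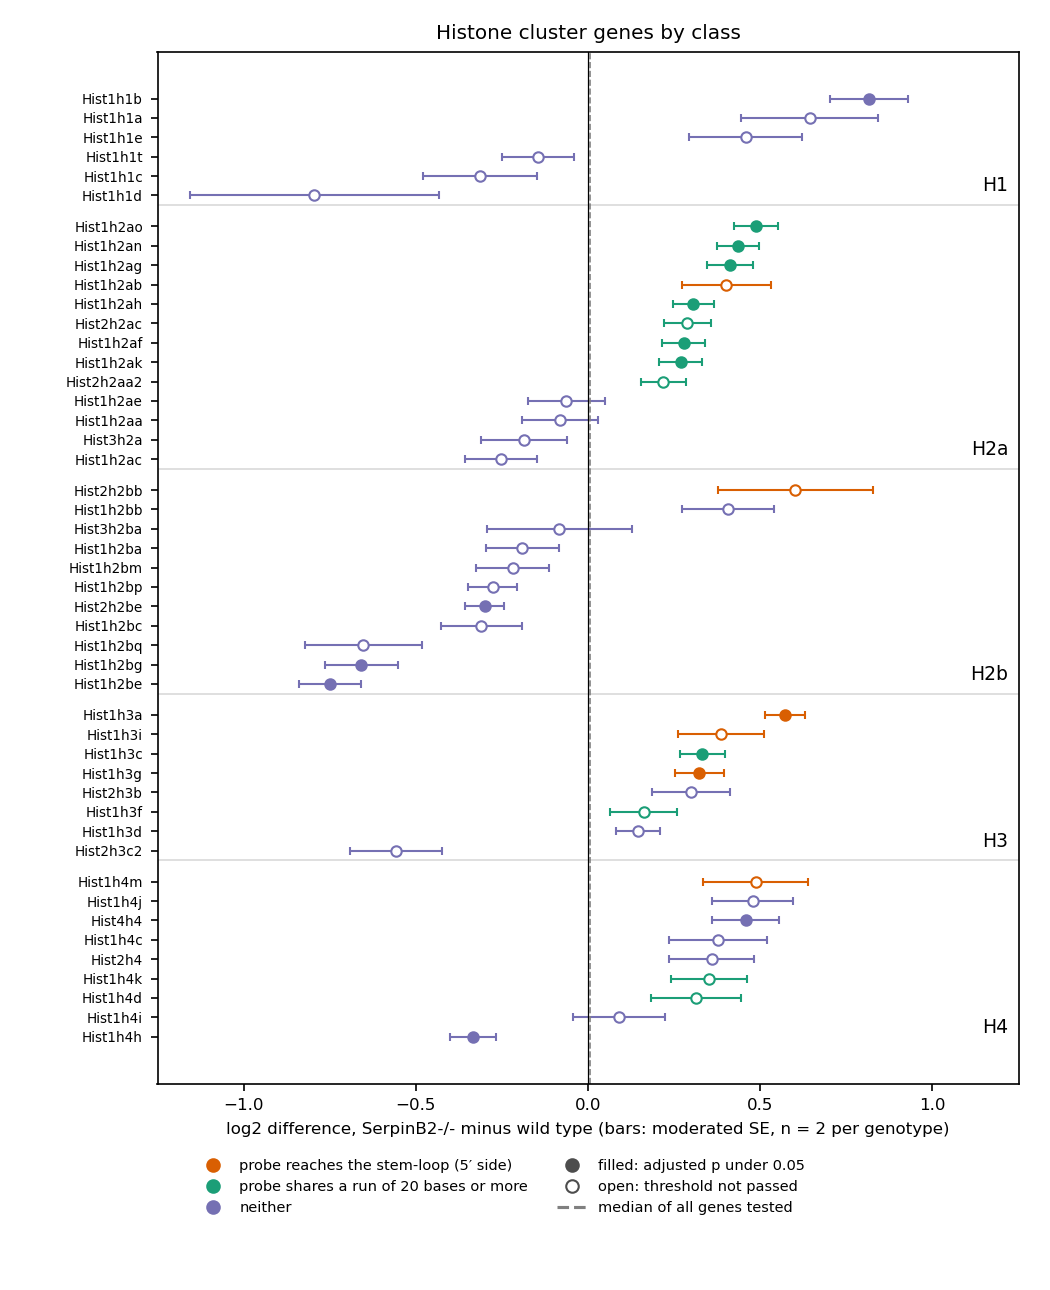
Log2 difference (SerpinB2-/- minus wild type) of each of the 47 histone cluster genes, grouped by class, with moderated standard errors (n = 2 per genotype). Filled points passed the threshold, colours give the target of the probe, and the dashed line is the median of all genes tested. All probes that reach the stem-loop from its 5′ side or share a run lie above 0, Hist1h2ae, whose probe begins inside the stem-loop, lies at -0.06, and 9 of 11 H2b genes lie below 0.

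The setting for these genes was checked on the deleted gene and on cell type markers. The Serpinb2 probe had a signal of 3047 and 3382 units in wild type samples. In the SerpinB2-/- samples it read 5.86 and 7.04, below what counts as well above background, and the fall was at least 140-fold with those readings raised to the lowest countable signal (adjusted p = 0.00069 by limma). Of 10 proximal tubule markers 9 passed the filter on dim probes, all but Slc5a2, with 1 rise and 1 fall. In the distal tubule and collecting duct list 6 of 10 passed it, of which 4 fell, and Umod, Slc12a1, Slc12a3 and Calb1 did not pass. Of 6 epithelial markers 5 fell, of 10 leukocyte markers 7 fell, of 9 endothelial markers 8 fell, and of 9 fibroblast and pericyte markers 2 rose. These rises and falls are calls at the same threshold, which 6.01% of all genes tested passed as higher and 9.68% as lower. Summed signals relative to the 75th percentile of each array were 264 and 258 in wild type, against 204 and 217 in SerpinB2-/- cells for epithelium. They were 6.20 and 6.39 against 6.80 and 7.04 for the proximal tubule list, 41.7 and 49.4 against 33.3 and 31.5 for the distal list, 13.4 and 12.3 against 10.68 and 10.2 for leukocytes, 5.05 and 4.98 against 3.02 and 3.73 for endothelium, and 173 and 140 against 181 and 210 for fibroblasts and pericytes. Their part in the histone differences was not tested. In such cultures, fewer cells of a type and less RNA per cell cannot be told apart.

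Linker histone genes lay on both sides of 0, with 3 above and 3 below. Hist1h1b, a linker histone gene of dividing cells now named H1f5, had signals of 4288 and 3761 units in wild type, against 7713 and 6730 in SerpinB2-/- cells. Both SerpinB2-/- values lay well above both wild type values. The difference was 0.82 ± 0.11, or 1.76-fold, and passed the test (adjusted p = 0.0177, limma). The probe lay on chromosome 13 at 21871923 to 21871982, on the minus strand (mm9). Of 6 H1 genes it was the one that passed, where 6.01% of all genes tested were called higher and 9.68% lower.

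Hist1h1a and Hist1h1e, of the same linker family, had higher signals in both SerpinB2-/- samples than in either wild type sample, with differences of 0.64 ± 0.20 and 0.46 ± 0.16 that did not pass (adjusted p = 0.0954 and 0.127, limma). Hist1h1c, another somatic linker gene, gave 11803 and 11143 in wild type, against 8555 and 10357 in SerpinB2-/- cells. After scaling its groups overlapped, and its difference of -0.31 ± 0.17 did not pass (adjusted p = 0.254). Hist1h1d gave 58.9 and 64.2 in wild type, against 26.1 and 50.2 in SerpinB2-/- cells. Its groups did not overlap, but the SerpinB2-/- arrays lay far apart and the first was not well above background. Hist1h1d was kept through wild type, where it was the higher, so its fitted difference of -0.79 ± 0.36 (adjusted p = 0.198) gives no exact size. It was -0.27 with normexp background correction, -0.24 without SerpinB2-/- replicate 1 and -1.35 without SerpinB2-/- replicate 2, where alone it passed (adjusted p = 0.00867). Hist1h1t, a linker gene of male germ cells, was at -0.15.

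H2a genes fell into a group above 0 and a smaller group near or below it. Of 13 genes, 6 rose and 0 fell, beside 6.01% and 9.68% of all genes tested, with a class median of 0.28. The 6 were Hist1h2ao, Hist1h2an, Hist1h2ag, Hist1h2ah, Hist1h2af and Hist1h2ak, and all belong to the set of 8 probes with shared runs. Hist1h2ao gave 114746 and 117817 in wild type, against 172893 and 159792 in SerpinB2-/- cells, a difference of 0.49 ± 0.06 (adjusted p = 0.0148, limma). Hist1h2an gave 92713 and 96366 against 135630 and 125278, or 0.44 ± 0.06 (adjusted p = 0.0177). By the array positions these 2 probes overlapped on chromosome 13, Hist1h2ao at 21902695 to 21902754 and Hist1h2an at 21902669 to 21902728 (mm9, plus strand). They shared 34 bases, so they do not give separate measurements. In the RefSeq promoter table Hist1h2an is on the minus strand and Hist1h2ao on the plus strand. The place that the array gives the Hist1h2an probe is therefore uncertain.

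Hist1h2ag gave 123687 and 124465 in wild type, against 175460 and 161643 in SerpinB2-/- cells, or 0.41 ± 0.07 (adjusted p = 0.0239). Hist1h2ah gave 152831 and 162642 against 206044 and 191676, or 0.31 ± 0.06 (adjusted p = 0.0344). In each of these genes the groups were apart and the arrays of a genotype close together. Hist1h2af and Hist1h2ak rose by 0.28 and 0.27 (adjusted p = 0.0486 and 0.0499). Hist2h2ac and Hist2h2aa2, on chromosome 3, were at 0.29 and 0.22 (adjusted p = 0.0533 and 0.0894). Over the 8 genes the median was 0.30 and the range 0.22 to 0.49, and no spot on any array was saturated. Because of the shared sequence, it cannot be told which of these genes supplied the message. Hist1h2ak had a second probe, of lower signal, which gave 10677 and 10962 in wild type, against 17221 and 16491 in SerpinB2-/- cells, a difference of 0.61.

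The remaining H2a genes had probes outside that set. Hist1h2ab, whose probe ends inside the stem-loop, gave 28961 and 24858 in wild type, against 36611 and 35646 in SerpinB2-/- cells. Both SerpinB2-/- values were the higher, with a difference of 0.40 ± 0.13 that did not pass (adjusted p = 0.103, limma). Hist1h2ae, whose probe begins inside the stem-loop and runs on past it, gave 87.2 and 95.6 against 84.9 and 93.4, or -0.06 ± 0.11 (adjusted p = 0.723). Its groups overlapped. Hist1h2aa, a germ cell form, was at -0.08, Hist3h2a at -0.19 and Hist1h2ac at -0.25 ± 0.10 (adjusted p = 0.167). Hist1h2ac gave 78.6 and 102 in wild type, against 78.8 and 74.8 in SerpinB2-/- cells, and after scaling both SerpinB2-/- values were the lower.

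H2b genes lay mostly on the other side. Of 11 genes, 3 fell and 0 rose, beside 9.68% and 6.01% of all genes tested. The class median was -0.28, with 9 below 0. In 8 the SerpinB2-/- values were both the lower, against 31.9% of all genes, and Hist1h2bp, kept through wild type, is among them. The median was -0.26 over genes measured on all 4 arrays and -0.14 with median scaling. Hist1h2be, a core histone gene on chromosome 13 (23675610 to 23675669, minus strand, mm9), gave 349 and 374 in wild type, against 215 and 223 in SerpinB2-/- cells. The groups were far apart. It fell by 0.75 ± 0.09 on the log2 scale (adjusted p = 0.013, limma). Hist1h2bg (23663823 to 23663882, plus strand) gave 120 and 113 against 74.4 and 76.2. Both SerpinB2-/- values were again the lower, and it fell by 0.66 ± 0.11 (adjusted p = 0.0239). Under normexp background correction Hist1h2bg was at -0.39 and did not pass (adjusted p = 0.0599, limma). Hist2h2be, on chromosome 3, gave 198 and 209 against 178 and 160 and fell by 0.30 ± 0.06 (adjusted p = 0.0325).

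Hist1h2bq was at -0.65 ± 0.17 (adjusted p = 0.0672), with 82.3 and 102 in wild type, against 53.6 and 65.9 in SerpinB2-/- cells. Hist1h2bc gave 80700 and 75649 in wild type, against 62608 and 65990 in SerpinB2-/- cells, with a difference of -0.31 ± 0.12 (adjusted p = 0.141). Its SerpinB2-/- values were both the lower. Hist1h2bp, Hist1h2bm and Hist3h2ba were at -0.28, -0.22 and -0.08. Hist1h2ba, a germ cell form, was at -0.19. Above 0 were Hist1h2bb at 0.41 ± 0.13 (adjusted p = 0.108) and Hist2h2bb. Hist2h2bb, whose probe holds the stem-loop, gave 543 and 395 in wild type, against 672 and 763 in SerpinB2-/- cells, or 0.60 ± 0.22 (adjusted p = 0.137). Its groups did not overlap, but the wild type arrays differed by nearly as much as the genotypes. Its other probe was not well above background on any array.

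H3 genes were above 0 apart from Hist2h3c2. Of 8 genes 3 rose and 0 fell, beside 6.01% and 9.68% of all genes tested, with a class median of 0.31. Hist1h3a, one of the genes whose probe holds the stem-loop (chromosome 13, 23853756 to 23853815, minus strand, mm9), gave 51.3 and 53.5 in wild type, against 84.8 and 74.5 in SerpinB2-/- cells. The groups were well apart and the difference was 0.57 ± 0.06 (adjusted p = 0.00977, limma), the lowest adjusted p of the histone genes. The probe was dim, and with normexp background correction the difference was 0.32 (adjusted p = 0.0374, limma). Hist1h3c gave 2403 and 2646 against 3298 and 3177, or 0.33 ± 0.07 (adjusted p = 0.0366). Hist1h3g, also with the stem-loop, gave 143 and 142 against 196 and 169, or 0.32 ± 0.07 (adjusted p = 0.0452). Under normexp it was at 0.25 and did not pass (adjusted p = 0.0789, limma).

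Hist1h3i, with the stem-loop, was at 0.39, Hist2h3b at 0.30, Hist1h3f at 0.16 and Hist1h3d at 0.14, none past the threshold. The probes of Hist1h3c and Hist1h3f shared a run of 36 bases. Hist2h3c2, on chromosome 3 at 96042034 to 96042093 (minus strand, mm9), gave 2343 and 2551 in wild type, against 1574 and 1824 in SerpinB2-/- cells. Its SerpinB2-/- values were both the lower, and its difference of -0.56 ± 0.13 just missed the threshold (adjusted p = 0.0554).

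H4 genes had a class median of 0.36 (0.24 without wild type replicate 2 or SerpinB2-/- replicate 2), with 1 of 9 called higher and 1 called lower. Over all genes tested the shares were 6.01% and 9.68%, and 1 call each way gives the class no direction by calls. Hist4h4, the one cluster gene on chromosome 6 (136752681 to 136752740, minus strand, mm9), gave 2350 and 2360 in wild type, against 3233 and 3363 in SerpinB2-/- cells. The difference of 0.46 ± 0.10 passed (adjusted p = 0.0426, limma). Hist1h4h gave 192 and 209 in wild type, against 165 and 159 in SerpinB2-/- cells. Its groups did not overlap, and it fell by 0.33 ± 0.07 (adjusted p = 0.0371). Under normexp it was at -0.24 and did not pass (adjusted p = 0.095, limma). It was the one H4 gene below 0.

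Hist1h4m, whose probe holds the stem-loop, gave 99.5 and 87.2 in wild type, against 126 and 140 in SerpinB2-/- cells, or 0.49 ± 0.15 (adjusted p = 0.0975). Hist1h4j was at 0.48, Hist1h4c at 0.38, Hist2h4 at 0.36, Hist1h4k at 0.35, Hist1h4d at 0.31 and Hist1h4i at 0.09, and none passed. H4 protein is the same for nearly all of these genes, and their messages differ mainly outside the coding part. Second probes gave 0.43 for Hist1h4d and 0.40 for Hist1h4k, near their first, and -0.05 for Hist1h4i.

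**Figure D2:**
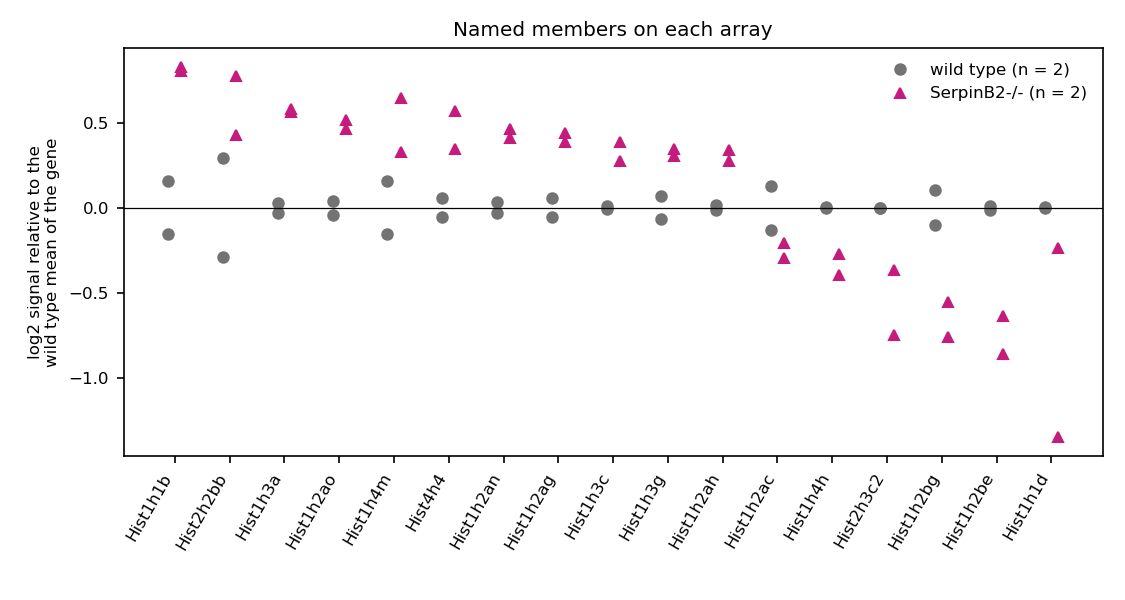
Scaled log2 signal of 17 histone genes on each array, relative to the wild type mean of the gene; circles are the 2 wild type arrays and triangles the 2 SerpinB2-/- arrays. The genes are those with the largest called differences and the extremes of each class. The groups are apart for each gene shown, with the widest spread within SerpinB2-/- in Hist1h1d (58.9 and 64.2 against 26.1 and 50.2 signal units).

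The direction of the difference went in part with the target of the probe, though H3 and H4 genes lay mostly above 0 whatever the target. This grouping was made after the values were seen, so it is given as a description with no test. The 6 genes whose probe reaches the stem-loop from the 5′ side (Hist1h2ab, Hist1h3a, Hist1h3g, Hist1h3i, Hist1h4m and Hist2h2bb) were all above 0, with a median of 0.44 and a range of 0.32 to 0.60, and 2 of them passed. They came from 4 classes. The Hist2h2bb probe shared a run of 21 bases that includes the stem-loop with the Hist1h3a probe and another with the Hist1h3i probe, so these may read in part the same messages. The 12 further genes whose probe shared at least 20 bases with another histone probe were also all above 0, with a median of 0.31, and 7 passed. Of the remaining 29 genes, 11 were above and 18 below 0, with a median of -0.15, and 2 rose and 4 fell. These calls are near the shares over all genes tested, 6.01% higher and 9.68% lower. Hist1h2ae, whose probe holds 12 bases of the stem-loop and not its start, is among them, as are Hist1h1d and Hist1h2bp. The median of the stem-loop genes was 0.28 without wild type replicate 2. The median of the remaining genes was -0.06 with normexp, -0.01 with quantile normalization or median scaling, -0.08 with probes measured on all 4 arrays, -0.05 without SerpinB2-/- replicate 1 and -0.06 when wild type replicate 1 was left out, so it lay nearer to 0 in these settings.

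With 1 gene kept for each group of probes that share a run, an alternative chosen after the data were seen, 36 genes remained. Then 5 were higher and 4 lower, and the median was 0.013. Within H2b, the gene whose probe holds the stem-loop, Hist2h2bb, was at 0.60, and the other 10 had a median of -0.29. Within H2a, the 4 genes whose probe neither reaches the stem-loop from its 5′ side nor shares a run were all below 0, with a median of -0.13. In H3 and H4, genes of this kind were mostly above 0, 2 of 3 (median 0.145) and 5 of 6 (median 0.37). Of the 29 genes of this kind 10 were H2b and 6 were H1. Class and probe target were therefore not independent.

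Outside the histone clusters, 4 tested genes had a probe with a stem-loop by the same rule, and all were below 0. They were Clec2d, which encodes a C-type lectin (-0.54 ± 0.11, adjusted p = 0.0418, limma), Fndc5 at -0.28, Megf6 at -0.17, and an unnamed transcript at -0.30. Of these Clec2d fell and the others did not pass.

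Base composition also differed between the probes that went up and down. For probes with under 45% G or C, 12 histone genes had a median of -0.29. Among these, the 10 whose probe does not reach the stem-loop from its 5′ side were all below 0 (median -0.31). They include Hist1h2ae, whose probe holds the last 12 bases of the stem-loop, and Hist1h1d and Hist1h2bp, which were kept through wild type. Hist1h2ab and Hist1h3a, which reach it from that side, were at 0.40 and 0.57. At 45% to under 55% the median was 0.31 (17 genes), and at 55% or more 0.32 (18 genes). Over the 47 genes the correlation of the difference with GC content was 0.54, where the points share arrays and, in part, sequence. Over all genes tested it was -0.09, and the medians of the same 3 bins were 0.02, -0.01 and -0.04.

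**Figure D3:**
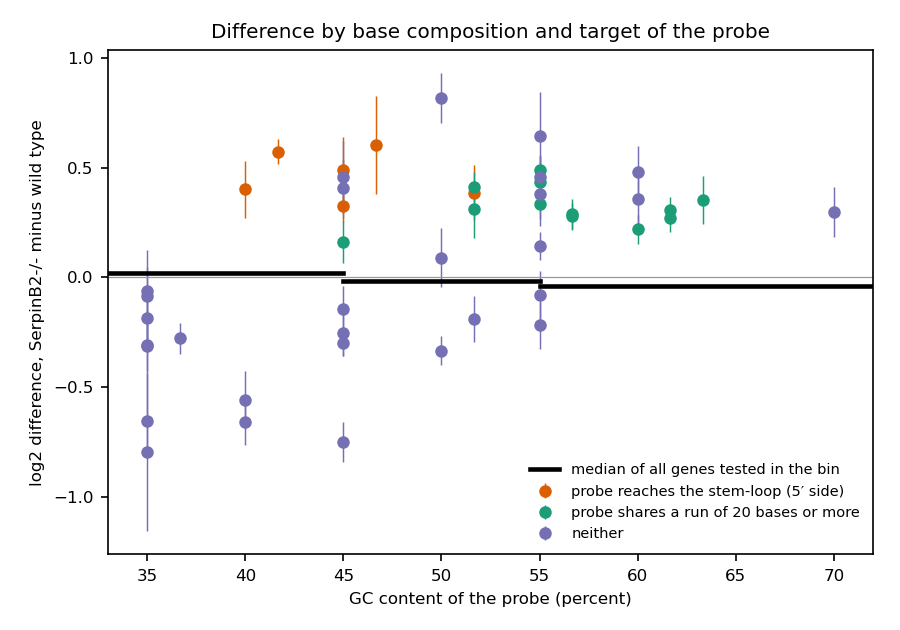
Log2 difference (SerpinB2-/- minus wild type, with moderated standard error, n = 2 per genotype) against the GC content of the probe for the 47 histone genes, coloured by target. Black bars are the medians of all genes tested in the same 3 bins of GC content (0.02, -0.01 and -0.04). The AT-rich probes that do not reach the stem-loop from its 5′ side lie below 0, and the 2 that do lie above.

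Genes with more than 1 RefSeq transcript were all of class H2b. Hist1h2bc, Hist1h2be, Hist1h2bp and Hist1h2bq had more than 1, were all below 0, and had a median of -0.48. In each the SerpinB2-/- values were both the lower. Hist1h2bp was kept through wild type, where it was the higher, and does not bear on the direction, which leaves -0.31, -0.75 and -0.65 for the others. A poly(A) signal hexamer (AATAAA or ATTAAA) was present in 4 of 47 probes (8.51%), against 16.7% of all probes. Parts of 2 of them are printed with the hexamer in capitals, since their genes are both H2b and both below 0.
Hist1h2be: gtactgttcattATTAAAgcattcctgatt
Hist3h2ba: gttcataatggtattAATAAAtttggttca
The 4 genes did not share a direction: Hist1h2be was at -0.75, Hist3h2ba at -0.08, Hist1h4i at 0.09 and Hist1h2ag at 0.41. Whether the 3′ form of the message, the primer of the labelling reaction or the base composition of the probe set these directions was not tested.

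Neighbours in the cluster differed in direction. On chromosome 13 (mm9) the probes of Hist1h2bg began at 23663823, of Hist1h3d at 23667979, of Hist1h4d at 23673749 and of Hist1h2be at 23675610, with differences of -0.66, 0.14, 0.31 and -0.75. The array gives Hist1h2ag (0.41) the position 23666685 to 23726365, which takes in the last 3 of these starts and spans 59681 bases for a probe of 60, so its place among them is uncertain. The Hist1 cluster as a whole had 10 of 37 genes higher and 3 lower, beside 6.01% and 9.68% of all genes tested. Its median was 0.28. Hist2, on chromosome 3, had a median of 0.29, with 0 higher and 1 lower, and the 2 Hist3 genes were at -0.19 and -0.08.

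Promoters were compared because some genes of like promoter lay on opposite sides of 0. In the RefSeq promoter table (GRCm38.p6), 43 promoters of 42 histone genes were present, and the 250 bases before the start were searched on both strands. TATAA was found in 67.4% of them and in 22.8% of all 32851 promoters, CCAAT in 83.7% and 33.8%, and the octamer ATTTGCAT, the letters read by POU-domain factors, in 30.2% and 1.60%. The octamer was found in 6 of 10 H2b and 7 of 13 H2a promoters and in 0 of the other classes. It was in 19.2% of promoters of genes above 0 and 47.1% of those of genes below 0. Most H2b genes lay below 0 and most H3 and H4 genes above, so octamer and class are not independent. Within H2a, promoters without it belong to genes above 0, all of the set of 8 probes with shared runs. Those with it belong to Hist1h2aa, Hist1h2ac, Hist1h2ae and Hist3h2a, below 0, and Hist1h2ab, Hist1h2ah and Hist2h2ac, above 0. Within H2b the genes above 0, Hist1h2bb and Hist2h2bb, hold it, as do some below 0. Its part in the directions was not tested. Hist1h2be counts with more than 1 promoter. Hist1h1d and Hist1h2bp, kept through wild type, are among the genes below 0 and lack the octamer. Hist2h2bb and Hist1h2bg hold all 3 motifs. Hist2h2bb was at 0.60 ± 0.22 and did not pass. Hist1h2bg was at -0.66 ± 0.11 and passed, though not under normexp. The 150 bases before the start are printed for these genes and for Hist1h1b, with the motifs in capitals on either strand.
Hist2h2bb (chr3:96269550-96269699, plus strand): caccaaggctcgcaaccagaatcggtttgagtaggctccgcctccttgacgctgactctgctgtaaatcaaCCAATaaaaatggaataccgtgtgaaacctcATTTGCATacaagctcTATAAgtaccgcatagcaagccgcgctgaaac
Hist1h2bg (chr13:23571250-23571399, plus strand): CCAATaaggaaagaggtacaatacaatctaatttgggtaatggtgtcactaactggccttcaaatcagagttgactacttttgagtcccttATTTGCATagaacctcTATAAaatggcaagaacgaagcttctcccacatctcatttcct
Hist1h1b (chr13:21780626-21780775, minus strand): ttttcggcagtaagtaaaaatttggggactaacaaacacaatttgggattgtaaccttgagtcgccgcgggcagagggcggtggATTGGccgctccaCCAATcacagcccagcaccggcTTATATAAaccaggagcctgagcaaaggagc

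Histone genes outside the clusters were mostly above 0. Many of these variants, though not all, are made through the cell cycle and from poly(A)-tailed messages. Of 11 genes, 2 rose and 0 fell, with a median of 0.20, where 6.01% of all genes tested were called higher and 9.68% lower. H2afx, the variant phosphorylated at DNA breaks, gave 12953 and 13748 in wild type, against 19666 and 18590 in SerpinB2-/- cells, or 0.49 ± 0.06 (adjusted p = 0.0142, limma). H2afy2, a macroH2A gene, rose by 0.27 ± 0.06 (adjusted p = 0.0397). H2afz, a variant found at promoters, and Cenpa, the H3 variant of the centromere, were at 0.24 and 0.28 (adjusted p = 0.0749 and 0.0765). With an array left out, 0 were called without either wild type array and 1 without either SerpinB2-/- array.

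Of the factors that make, translate and degrade histone messages, 18 of 19 were measured, and 2 rose and 0 fell, with a median of 0.07. Among all genes tested 6.01% were called higher and 9.68% lower. Taken in either direction, the share called in this list was below the 15.7% of all genes. Slbp, the stem-loop binding protein, gave 753 and 983 in wild type, against 1304 and 1121 in SerpinB2-/- cells. Its groups did not overlap, and it rose by 0.46 ± 0.10 (adjusted p = 0.0458, limma). Casp8ap2, a nuclear protein needed for histone gene expression, gave 1027 and 1198 against 1701 and 1550, or 0.52 ± 0.06 (adjusted p = 0.0138). Npat, the coactivator of histone gene transcription, did not pass the filter on dim probes. With wild type replicate 1 left out 0 were called, and 1 without either SerpinB2-/- array.

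Chaperones that carry new histones to DNA had 9 of 25 genes higher and 0 lower, with a median of 0.19. The shares over all genes tested were 6.01% higher and 9.68% lower, for this list and for the S phase genes below. Chaf1b, a subunit of the chromatin assembly factor of replicating DNA, rose by 0.55 ± 0.10, Asf1b, which hands over H3 and H4, by 0.51 ± 0.09, Hat1, which acetylates new H4, by 0.50 ± 0.09, and Dnajc9 by 0.46 ± 0.06. Of 25 measured S phase genes 24 were higher and 0 lower, with a median of 0.47. They included Cdc6, which loads the replicative helicase (0.85 ± 0.10, adjusted p = 0.0138), Prim1, the primase subunit (0.80 ± 0.07), Tk1, the thymidine kinase of S phase (0.79 ± 0.07), and Cdk2 (0.67 ± 0.09). Without wild type replicate 1, wild type replicate 2, SerpinB2-/- replicate 1 or SerpinB2-/- replicate 2, the chaperone count was 0, 0, 1 and 4, and the S phase count 3, 7, 14 and 18. The arrays were the same in all these lists, so the lists are not separate evidence for the histone genes.

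**Figure D4:**
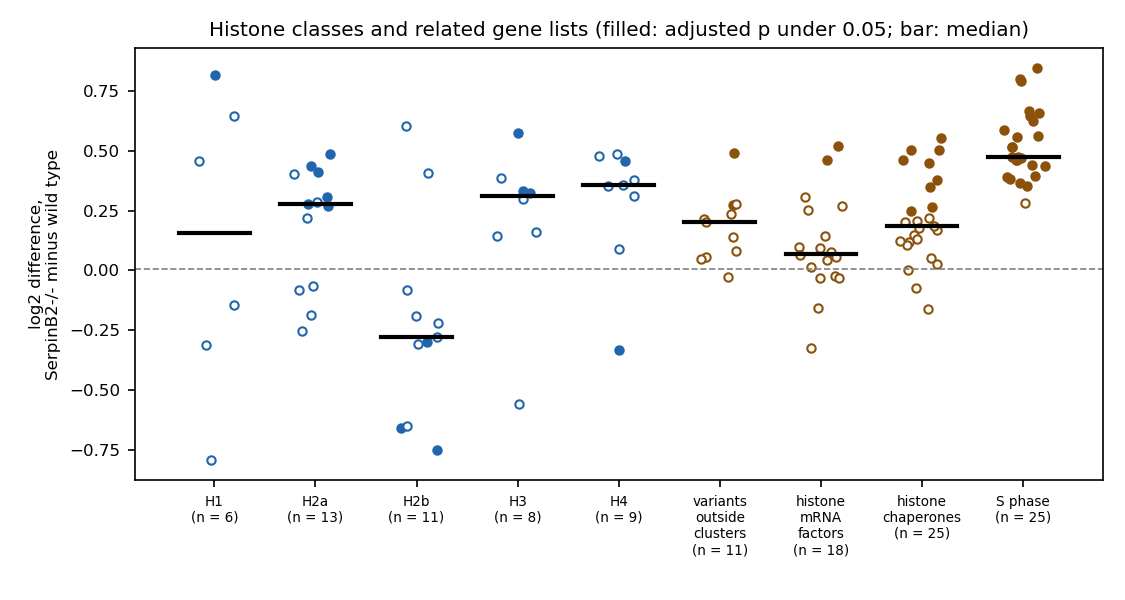
Log2 difference (SerpinB2-/- minus wild type, n = 2 per genotype) of the genes of each histone class and of 4 related lists; filled points passed the threshold, thick bars are medians and the dashed line is the median of all genes tested. H2b is the one group shown with a median below 0 (-0.28), and the S phase list has the highest (0.47).

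The histone genes also varied between arrays of one genotype. The mean of their values, each gene centred over the 4 arrays, was 0.02 and -0.13 in wild type, against -0.05 and 0.15 in SerpinB2-/- cells. The groups overlapped in this mean. The median of the same values was -0.03 and -0.17 in wild type, against 0.04 and 0.18 in SerpinB2-/- cells, and did not overlap. The genes outside the clusters nearest to this mean profile by Euclidean distance over the 4 arrays were Fam229b, Col6a2 and Htra1 (distances of 0.0096, 0.014 and 0.017), and none of them passed the test (0.11, 0.11 and 0.11).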

How the data were processed

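Total RNA (150 ng per sample) was labelled with Cy3, per the labels. The deposited intensity values were made by the authors with Agilent Feature Extraction 10.7.3.1, which subtracts background, removes spatial and multiplicative trends and replaces dim spots with surrogates, per the file headers. All arrays lay on 1 slide, and position on it cannot be told apart from genotype. A deposited table of intensity scaled by the authors served as an alternative. Flags per spot (well above background, outlier, saturated) are those of the deposited scanner files.

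Control and outlier spots were left out, the log2 values of the spots of a probe averaged, and the 75th percentile of each array subtracted. Probes with more than 50% of spots well above background on both arrays of a genotype were used, the brightest for each gene name. Per array, 23409 to 24476 of 39429 probes were well above background and 0 spots were saturated. Precision is limited by the number of arrays, and the smallest exact two-sided p for 2 against 2 is 0.333. The 18413 genes were fitted with limma 3.58.1 in R 4.3.3 (lmFit, eBayes), p-values adjusted by Benjamini-Hochberg and a threshold of 0.05; the procedure was tested on simulated data. Names and probe positions (mm9) are those of the files. All 47 histone genes matched the RefSeq gene table of GRCm38.p6 (38 by accession), which gave transcripts per gene; promoters are from RefSeq on that build.

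The histone genes, the lists and the markers were chosen with earlier results of these data known. Histone genes given with full values were the 12 called with the largest difference and the highest and lowest of each class (17 genes), and in each list up to 4 called genes with the largest difference plus Slbp, Npat, Casp8ap2, H2afz, H2afx and Cenpa; other members were named to account for all. Probe groups by target and base composition were chosen after the values were seen. The alternatives were other background corrections, scalings, filters, probe rules, fits and thresholds, and each array left out.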

Additional observations from a re-analysis of the deposited data

How the results depend on the processing

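The 17 histone genes chosen by the rule (the 12 largest calls and the extremes of each class) kept their direction under every alternative run. Of their 322 values under alternatives 236 stayed on their side of the threshold, 75 lost it and 11 passed it. Among all 47, signs changed in Hist1h2ae (up to 0.089, without SerpinB2-/- replicate 1), Hist3h2ba, Hist1h2aa and Hist1h4i. The H2b median stayed below 0 and the 6 genes whose probe reaches the stem-loop from its 5′ side stayed above 0 under every alternative. Other fits and thresholds on all arrays leave each difference as it is, so those runs do not bear on these directions. The filters on dim probes also left the differences of those of the 17 genes that they kept unchanged. Counts of calls were less stable, and signals near background limit the dim genes.

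The number of histone genes called higher (11) was 7 with quantile normalization, with scaling by detected probes, with the authors' table and with the replicate block, 26 with median scaling, 17 at a threshold of 0.1 and 5 with 1 gene per group of probes that share a run. The number called lower (4) was 2 with normexp and with quantile normalization and 7 at a threshold of 0.1. Median scaling moved the median of the histone genes to 0.41, and keeping 1 gene per shared run moved it to 0.013. With median scaling all genes had a median of 0.14 and 5579 calls (4333 higher and 1246 lower), and a threshold of 0.1 gave 4841 in place of 2889. With dim probes kept, 3 genes were called in all, and 0 histone genes higher and 0 lower (24 of 49 at an unadjusted p under 0.05). With an unmoderated two-group test 0 genes were called (4447 at an unadjusted p under 0.05, among them 15 histone genes). In these 2 settings the 4 lists also had 0 calls.

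The variant list (2 called) had 1 call with quantile normalization, detected-probe scaling and the replicate block, 5 with median scaling, and 4 with a trended fit or a threshold of 0.1. The histone message factors (2) had 1 with quantile normalization, detected-probe scaling, the authors' table or outlier spots kept, 5 with median scaling, a trended fit or a threshold of 0.1, and 6 with every probe by itself. The chaperones (9) had 15 with median scaling. The cause of these shifts was not tested.

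With each array left out, histone genes called higher ranged from 1 to 6 and lower from 0 to 5, all genes from 751 to 1582, variants from 0 to 1, message factors from 0 to 2, chaperones from 0 to 4 and S phase genes from 3 to 18. The replicate numbers of the titles were shared by both genotypes, but with 2 pairs and a correlation of deviations of 0.26 they are taken as numbers only. The replicate block gave 7 histone genes higher and 4 lower and 2147 genes in all.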
